A study of Mus musculus with 2 samples.

Results

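The genes of the cytosolic ribosomal proteins were followed on 2 mouse liver arrays, each setting RNA lacking the membrane-anchored metalloproteinase MMP-14 against wild-type RNA in 2 colours. Members were taken by gene symbol, as every Rpl or Rps gene with a number and an optional ending a, l, x or l with a number, together with Rplp0, Rplp1, Rplp2 and Rpsa, and without the Rps6k kinases. This gave 60 genes with 63 probes, of 16390 named genes on the array. Of these, 37 belong to the large and 23 to the small subunit, Rpl5, Rpl26 and Rpl37a have 2 probes each, and Rplp0 and Rplp2 are not among the named genes.

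The first array carried RNA of Dlk+ cells, a hepatoblast-rich population sorted as CD45-, CD71- and Ter119- from fetal liver of MMP-14 KO and wild-type mice, at E14 by its label and E14.5 by the design text, with 100000 cells from 3 livers per genotype. Whole liver gave the RNA for the second, P1 (postnatal day 1) by its label but E18.5 by the design text, with RNA of 2 livers mixed for each genotype. It is called the P1 array here after its label. Wild-type RNA was labelled with Cy5 and knockout RNA with Cy3 on both arrays, with no dye swap. Since each comparison is 1 array, the spread between animals is unknown, no test was possible, and a dye effect of a probe cannot be told apart from genotype. Ratios set the knockout over the wild type on the log2 scale, and a difference is called by size alone, at 1.5-fold or 2-fold.

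Ribosomal proteins assemble with ribosomal RNA into the small subunit, which reads the messenger RNA, and the large subunit, which joins amino acids. Their genes are transcribed at a high rate in nearly all cells, and their messenger RNAs usually begin with a C followed by a run of pyrimidines, the 5′ terminal oligopyrimidine (TOP) motif, through which mTOR and LARP1 control their translation. Several members have a paralogue that replaces or accompanies them in some tissues, such as Rpl3l in striated muscle. In fetal liver, ribosome supply is known to limit erythroid cells, and heterozygous loss of several members causes Diamond-Blackfan anaemia in people.

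RefSeq promoter windows of GRCm38.p6, from 250 bases before to 50 after each annotated start, matched 48 of the 60 members. At an annotated start of 11 of the 48 stood a C followed by at least 4 bases that were each C or T, read on the strand of the gene. This held for 3.01% of the 27025 genes with a window and 2.77% of 13127 array genes. The letters CCGGAAG, on either strand, were in the window of 22 of 48 members (45.8%, against 9.93% of all genes with a window and 14.7% of array genes). TATAAA was in 3 (6.25%, against 15.7% and 12.5%) and CCAAT in 16 (33.3%, against 41.1% and 41.9%). These are matches of letters, not mapped sites. The stretches around the start, 25 bases before and 15 from it, are shown for the members the results turn on: Rpl41, Rps9 and Rps3 have the 3 lowest ratios on P1 and are among the 6 lowest on E14, Rps18 was read at the top of the range, Rpl28 and Rpl22l1 are among the highest ratios, and Rpl14 and Rps24 are among the 6 members with the lowest signal at P1 relative to E14. Capitals mark the first 10 bases from the annotated start.
Rpl41: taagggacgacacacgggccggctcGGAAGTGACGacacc
Rps9: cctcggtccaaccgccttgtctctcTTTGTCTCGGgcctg
Rps3: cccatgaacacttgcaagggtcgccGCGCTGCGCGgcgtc
Rps18: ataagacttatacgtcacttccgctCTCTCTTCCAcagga
Rpl28: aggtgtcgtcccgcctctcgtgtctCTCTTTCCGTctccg
Rpl22l1: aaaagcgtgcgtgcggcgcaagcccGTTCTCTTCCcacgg
Rpl14: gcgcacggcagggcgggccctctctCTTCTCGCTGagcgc
Rps24: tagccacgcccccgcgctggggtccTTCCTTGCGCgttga

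In that build they lie at chr10:128549154-128549193 on the minus strand (Rpl41), chr7:3704016-3704055 on the plus strand (Rps9), chr7:99483695-99483734 on the minus strand (Rps3) and chr17:33955651-33955690 on the minus strand (Rps18). Rpl28 lies at chr7:4792940-4792979, Rpl22l1 at chr3:28805483-28805522, Rpl14 at chr9:120571492-120571531 and Rps24, which has 2 annotated starts, at chr14:24490653-24490692, all on the plus strand. Rps18, Rpl28 and Rpl14 begin with the C and pyrimidines, whereas the annotated starts of Rps9 and Rps24 begin with T, and that of Rpl22l1 lies 1 base before a run of pyrimidines.

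The targeted gene and the tissue markers were read first. The ratio of Mmp14 was -1.13 at E14 and -1.30 at P1, and -2.13 and -2.83 in the authors' deposited table. Its spots were dim, at 131 (wild type) and 132 (knockout) on E14 and 161 and 104 on P1. Blank spots of the knockout channels had means of 80.7 and 82.5. All 8 hepatoblast and hepatocyte markers (among them Alb, Afp and Hnf4a) were detectable in every channel. Erythroid markers, the cells in which ribosome supply is best studied, summed to 321 and 700 over 5 genes in the wild-type and knockout E14 channels, and to 3456 and 3133 in those of P1. The 8 lung epithelial markers summed to 41497 for wild type and 875 for knockout at P1, with Sftpc at 24038 and 187. Their part in the P1 ratios below was not tested.

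Most ribosomal protein genes gave bright spots. A channel was called detectable above the mean of the blank spots plus 2 SD, after 5 percent of blanks was trimmed at each end, and 59 of 60 members were detectable in both channels of the E14 array and 56 in both of the P1 array. The median member signal on E14 was 7159 for wild type and 16526 for knockout, against 58.5 and 122 over all gene probes. At P1 it was 7166 and 11207, against 73.4 and 113. Between 38 and 40 of the 60 members lay in the top 5 percent of probe signals in each of the 4 channels. The 63 probes are 0.268% of all gene probes and carried 7.21% (wild type) and 6.52% (knockout) of the E14 signal above blank, and 5.93% and 5.84% of that of P1.

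A group of members gave dim spots. Rpl3l, the large subunit paralogue of striated muscle, was below the threshold in all 4 channels. Rps12, of the small subunit head, read 44.3 and 90.1 in the wild-type and knockout E14 channels and 49.0 and 90.4 in those of P1, with thresholds of 44.3 and 85.1 on the first and 50.5 and 87.0 on the second array. Rpl10, which joins the large subunit late in its maturation, read 45.2 and 90.6 on E14 and 49.0 and 85.1 on P1. Rpl37, a zinc-binding member, read 52.0 and 105 on E14, and on P1 49.9 and 87.2, the latter just above its threshold. For Rps12 and Rpl37, detectable in the knockout P1 channel only, the bound from normalised channel values was 1.07-fold and 1.01-fold higher at least in the knockout, which is next to no difference. A signal depends on the probe as well as on the transcript, so these readings give no order of expression among the members.

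**Figure D1:**
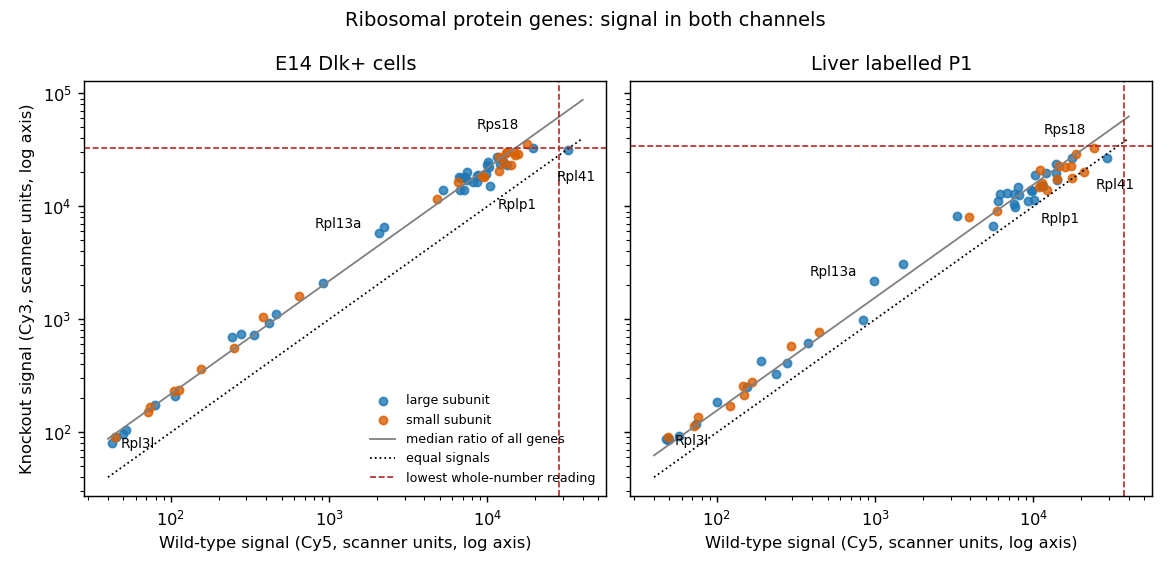
Signal of each ribosomal protein gene in the wild-type channel (x, log axis) and in the knockout channel (y, log axis) on the E14 array (left) and the P1 array (right), 60 points each, coloured by subunit. The grey line is the median ratio of all genes (2.19 on E14, 1.56 on P1), the dotted line equal signals and the red dashed lines the lowest whole-number reading of each channel. Dim members follow the grey line, the brightest members bend towards the dotted line, and Rpl41 lies below it on both arrays.

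Whole-number readings occurred only at the top of the range, and few members reached it. On the E14 array Rpl41, which encodes the smallest and most basic ribosomal protein, read 32199 in the wild-type channel, a whole number, and 31284 in the knockout channel. Rps18, of the small subunit head, read 17762 and 35701, the latter a whole number. On the P1 array no member was read as a whole number, with Rpl41 at 29036 and 26812 and Rps18 at 24209 and 32613. Rpl32, of the large subunit, read 33171 in the knockout E14 channel, the highest reading there that was not whole, while the lowest whole reading of that channel was 32697. In the wild-type E14 channel whole readings began at 28390 and the others ended at 26552, and in the wild-type P1 channel they began at 37242 and the others ended at 31677.

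In the scanner files no member reading stood at 65535, the limit of a 16-bit reading. That value was reached by 3 gene spots, all in the wild-type P1 channel. The file headers give straight lines between scans at 3 gain settings. The line from the first to the second setting takes 65535 to 31147 and 36057 in the wild-type and knockout E14 channels and to 35077 and 36520 in those of P1. Whole readings started at 28390 and 32697 in the E14 channels, below these values, and at 37242 and 33958 in those of P1, the first above and the second below. The sources used here do not say which scan a reading came from. Whether a member met a limit in a scan before its reading was put on this scale was not tested.

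From a wild-type signal of 1000 upward, the channel ratio of the members was lower at brighter spots. This held also at wild-type signals below the whole-number readings of that channel. Before any normalisation, the median of knockout over wild-type signal over all E14 genes was 2.19. Among members it was 2.03 for the 7 with a wild-type signal below 100 and 2.30 for the 13 from 100 to 1000. Such dim readings hold much of the blank level, and with it taken off these bins stood at 2.51 and 2.41. The 3 members from 1000 to 5000 (Rpl13a, Rpl28 and Rps27l) had a median factor of 2.79. It was 2.18 for the 17 members from 5000 to 10000, 1.98 for the 15 from 10000 to 15000 and 1.78 for the 4 above (Rpl32, Rpl41, Rps14 and Rps18). Other genes followed the same course, with 2.44, 2.15, 1.81 and 1.19 in the bins from 1000. Over the 39 members with a wild-type signal above 1000, the Spearman coefficient of raw ratio against signal was -0.70, and -0.26 over 661 other genes. These coefficients are descriptions across genes that share 1 array, and the wild-type signal enters both measures.

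On the P1 array members stood at 1.63 both below 100 and from 100 to 1000 (1.43 and 1.61 with the blank level taken off). The brighter bins gave 2.03, 1.55, 1.40 and 1.33. Other genes stood at 1.57, 1.72, 1.47 and 0.997. The Spearman coefficient was -0.54 over 38 members and 0.042 over 837 other genes. From 1000 upward the members' factor was thus lower in each brighter bin on both arrays. This included 5000 to 10000 and 10000 to 15000, where no wild-type reading was a whole number. Knockout readings were higher, and in the E14 bin from 10000 to 15000 they reached 30575 (Rps27). Whole readings of that channel began at 32697, and the part of a limit in the knockout channel was not tested. The bins from 1000 to 5000 hold 3 members each, and the order of the brighter bins does not rest on them.

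**Figure D2:**
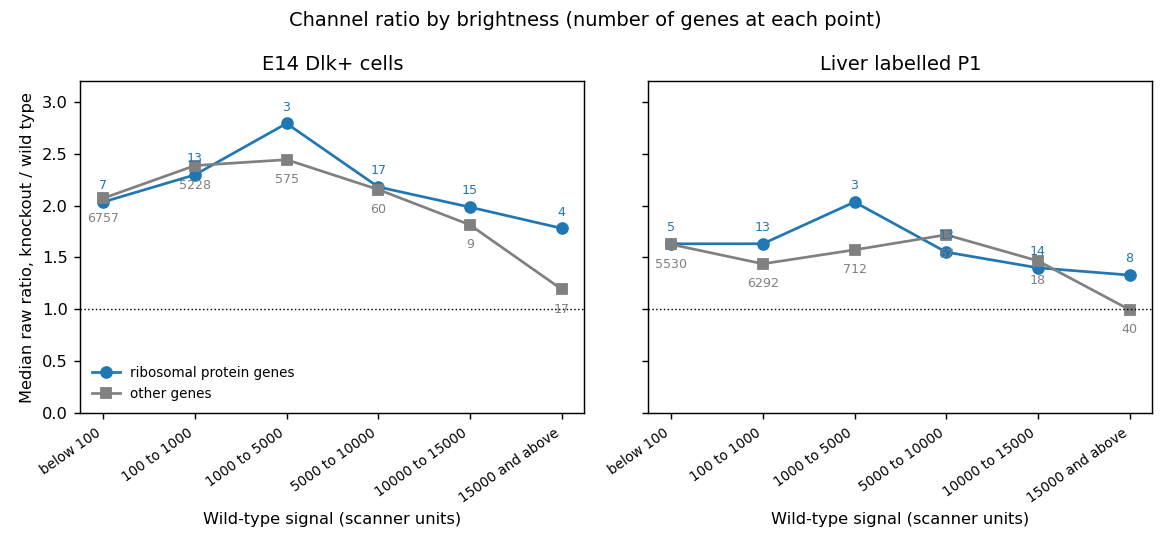
Median raw ratio of knockout over wild-type signal (y) in bins of wild-type signal (x) for ribosomal protein genes (blue) and other genes (grey), with the number of genes at each point, on the E14 array (left) and the P1 array (right). The members stand at 2.79 from 1000 to 5000 and at 1.78 from 15000 on E14, and at 2.03 and 1.33 on P1.

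The slope remained after loess normalisation. Then the median log2 ratio of the members was -0.01 from 100 to 1000, 0.20 from 1000 to 5000, -0.17 from 5000 to 10000, -0.30 from 10000 to 15000 and -0.46 above on the E14 array. On P1 the same bins gave 0.20, 0.37, -0.11, -0.26 and -0.38. Bright members thus kept a lower ratio than dim ones on both arrays, and other genes at 15000 and above stood at -1.04 and -0.80.

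With MMP-14 absent, the ribosomal protein genes as a group lay close to the other genes. On the E14 array their median log2 ratio was -0.09, with quartiles of -0.29 and 0.02, against 0.01 over all genes, but 0.51 against 0.28 under median centring in place of loess and 0.01 with the local background subtracted. On the P1 array it was -0.05, with quartiles of -0.30 and 0.17, against -0.00 over all genes. There it was 0.35 under median centring, against 0.05 over all genes. It was 0.22 with the local background subtracted, 0.12 with that background used in normexp and 0.09 in the authors' deposited table. The sign of the group's shift therefore depends on the scaling on both arrays. Large subunit genes had medians of -0.09 on E14 and -0.04 on P1, which were 0.56 and 0.37 under median centring. Small subunit genes had -0.09 and -0.11, and 0.47 and 0.31 under median centring. Over all genes median centring gave 0.28 and 0.05. In bulk RNA, fewer cells of a type and less RNA per cell cannot be told apart.

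**Figure D3:**
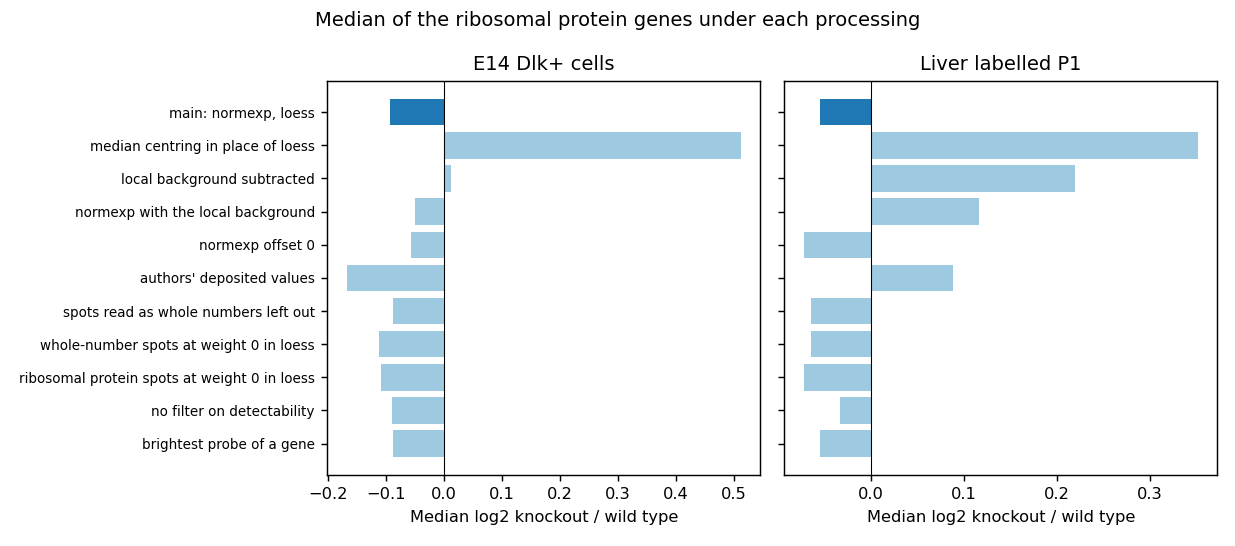
Median log2 ratio of knockout over wild type over the ribosomal protein genes under each processing (rows), on the E14 array (left) and the P1 array (right). Dark bars are the values reported and light bars the alternatives. Median centring gives 0.51 and 0.35 where loess gives -0.09 and -0.05. Over all genes, median centring gives 0.28 and 0.05.

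Few members passed a fixed fold. On the E14 array 0 of 59 were at least 1.5-fold higher (0.307% of all genes) and 3 were at least 1.5-fold lower (0.220%): Rpl41, Rplp1 and Rps9. Only Rpl41 was at least 2-fold lower (0.0945%), and 0 were 2-fold higher (0.0157%). Under median centring 25 were at least 1.5-fold higher and 0 lower, against 3149 and 5 of 12705 genes. On the P1 array 2 of 56 were at least 1.5-fold higher, Rpl17 and Rpl22l1 (2.84%), and 3 at least 1.5-fold lower, Rpl41, Rps9 and Rps3 (4.12%), with none at 2-fold in either direction (0.558% and 1.45%). The P1 shares of members, 3.57% and 5.36%, are near those of all genes. On E14 the share of members at least 1.5-fold lower, 5.08%, is larger than the 0.220% of all genes. Members are mostly bright and most genes dim, and brightness was not matched in these shares. On P1 under median centring 14 members were at least 1.5-fold higher and 0 lower, against 1295 and 320 of 12715 genes. The authors' deposited table gave 7 and 0, against 1510 and 1554.

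Rpl41 had the lowest ratio of all members on both arrays. Its signals of 32199 and 31284 gave -1.34 on E14, and 29036 and 26812 gave -0.92 on P1. The authors' deposited table gives -1.39 and -0.55. It was the only member whose wild-type signal exceeded its knockout signal on the E14 array, and the ratio stayed below 0 under all 9 alternatives that kept it on E14.

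Rplp1 encodes an acidic protein of the stalk that recruits elongation factors. Its signals were 10435 and 15224 on E14 and 10017 and 11439 on P1, with log2 ratios of -0.74 and -0.56. Under median centring they were 0.01 and 0.04. Rps9, of the small subunit body, read 14129 and 23002 on E14 and 20722 and 20209 on P1, with ratios of -0.59 and -0.82, which turned to 0.17 on E14 under median centring and to 0.67 on P1 with the local background used in normexp. Rps3, which sits where messenger RNA enters, read 11761 and 20378 on E14 and 17488 and 17643 on P1, with ratios of -0.50 and -0.76. Its ratio was 0.26 on E14 and -0.14 on P1 under median centring, and 6.22 and 1.72 with the local background used. Rpl32 (-0.53 and -0.19) and Rpl26 (-0.47 and -0.50) completed the 6 lowest on E14. On that array they stood at 0.23 and 0.29 under median centring.

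The local background, measured around each spot and not used in the values above, varied between these spots. In the wild-type E14 channel it was 12805 at Rps3, above the spot itself, 9032 at Rps9 and 1361 at Rplp1. Rplp1 and Rpl41 stayed below 0 on both arrays with it.

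Members with the highest ratios were the same on both arrays in part. Rpl17, of the peptide exit tunnel, read 245 and 695 on E14 and 191 and 425 on P1, with log2 ratios of 0.26 and 0.65. Rpl28, of the large subunit, read 2219 and 6520 on E14 and 1504 and 3058 on P1, with ratios of 0.28 and 0.37. Rpl13a, known for a role in silencing of inflammatory transcripts outside the ribosome, read 2076 and 5795 on E14 and 987 and 2175 on P1, with ratios of 0.20 and 0.50. Rpsa, the laminin-binding protein of the small subunit, read 381 and 1055 on E14 and 295 and 586 on P1, with ratios of 0.21 and 0.45. All 4 were higher in the knockout on both arrays, and of the 8 ratios only that of Rpl17 on P1 reached 1.5-fold. Under median centring all 8 did, with the lowest at 0.74 (Rpsa on P1). So did 3149 of 12705 genes on E14 and 1295 of 12715 on P1. In the authors' deposited table all 4 did on P1, from 0.59 to 0.82, as did 1510 of 12715 genes. Rpl35 (0.19) and Rpl14 (0.18) completed the 6 highest on E14, and Rpl38 (0.38) those on P1.

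Paralogues and their partners differed little on E14 and more on P1. Rpl22l1, which can replace the RNA-binding protein Rpl22, read 5271 and 13876 on E14 and 3276 and 8195 on P1, with log2 ratios of 0.11 and 0.62, while Rpl22 had -0.12 and -0.05. Rps27l, a p53-responsive relative of Rps27, had 4838 and 11517 on E14 and 3923 and 7980 on P1, with ratios of -0.03 and 0.32, while Rps27 had -0.25 and -0.45. Rpl39 had -0.30 and -0.46 and its relative Rpl39l, dim at 50.1 and 95.6 on E14, -0.09 and -0.03. Rpl7, at 0.06 and 0.14, and Rpl7l1, at 0.00 and 0.14, were alike in ratio on both arrays, and Rps4x stood at -0.09 and -0.13 and Rps4l at 0.06 and 0.23. The 5 detectable paralogues had medians of 0.00 on E14 and 0.23 on P1, with 0 and 1 at least 1.5-fold higher (0.307% and 2.84% of all genes). Under median centring these were 0.71 and 0.58, with 4 and 2 past 1.5-fold. Over all genes the medians were then 0.28 and 0.05, with 3149 of 12705 and 1295 of 12715 at least 1.5-fold higher.

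Of a chosen list of 10 genes linked to Diamond-Blackfan anaemia, 9 were on the array and lay on the lower side after loess. Their median was -0.21 on E14, with 9 of 9 below 0, and -0.25 on P1, with 7 of 9 below 0. Of all members, 41 of 59 and 32 of 56 were below 0 (69.5% and 57.1%, against 46.9% and 50.4% of all genes) and 18 and 24 above (53.1% and 49.6% of all genes). The 9 were mostly bright, with a median wild-type signal of 9276 on E14 and 11040 on P1. Members from 5000 to 10000 and from 10000 to 15000 had medians of -0.17 and -0.30 on E14, and of -0.11 and -0.26 on P1. Median centring gave 0.48 and 0.33 for the 9 genes, against 0.28 and 0.05 over all genes. The authors' deposited table gave -0.27 and 0.05 for the 9. The lowest was Rpl26 on E14 (-0.47) and Rps7 on P1 (-0.55), and none reached 1.5-fold. Rps10 had -0.38 and -0.24, Rpl35a -0.29 and -0.27, Rpl5 -0.21 and -0.27 and Rpl11 -0.17 and -0.25. Rps19, the member most often mutated in that anaemia, had -0.07 and -0.03. Rps26 (-0.12 and 0.16) and Rps24 (-0.08 and 0.31) were the 2 above 0 on P1. The erythroid markers of the sorted E14 cells were dim, from 50.6 to 73.7 in the wild-type channel.

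Probes of the same gene give a scale for these differences. The pairs of probes for Rpl26, Rpl37a and Rpl5 differed by 0.11, 0.16 and 0.16 on E14 and by 0.04, 0.08 and 0.26 on P1. The brighter Rpl5 probe read 14509 and 29024 on E14 with a ratio of -0.29, and the dimmer one 1810 and 4006 with -0.13. After loess, the differences of Rpl41, Rplp1, Rps9 and Rps3 from 0 were larger than these gaps on both arrays. These genes were named for their low ratios in the same data, so the comparison cannot decide whether they changed. Under median centring Rplp1 stood at 0.01 and 0.04, Rps9 at 0.17 and -0.19 and Rps3 at 0.26 and -0.14. The gaps hold the probe but no animals.

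Members kept their order between the arrays. Over the 56 members detectable on both, the log2 ratios of the E14 and P1 arrays had a Spearman coefficient of 0.86 and a Pearson coefficient of 0.84, and of 0.85 and 0.85 without Rpl41. All 12005 genes gave 0.16 and 0.084. Among members with a wild-type E14 signal of 5000 to 15000, a range in which brightness differs less, the Spearman coefficient was 0.89 over 32 members and 0.17 over 69 other genes. In the authors' deposited table these were 0.88 and 0.17. The 2 arrays share no RNA, but they share the probes, the dye of each genotype and the direction of labelling, so an effect of knockout and an effect of dye on a probe cannot be told apart. Both ratios were below 0 in 31 of 56 members (26.5% of all genes) and above 0 in 16 (30.0%).

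**Figure D4:**
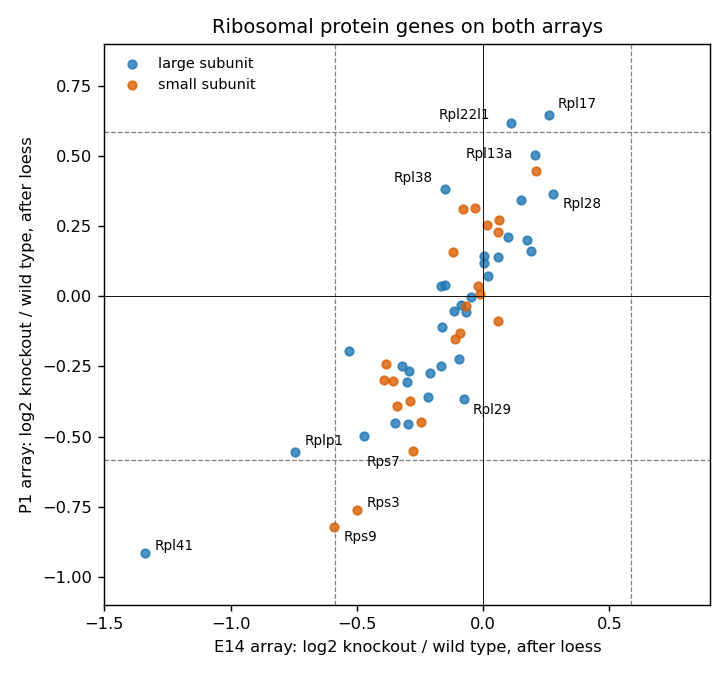
Log2 ratio of knockout over wild type after loess on the E14 array (x) and the P1 array (y) for the 56 ribosomal protein genes detectable on both, coloured by subunit, with dashed lines at 1.5-fold. The points follow 1 line, from Rpl41 at -1.34 and -0.92 to Rpl17 at 0.26 and 0.65.

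Some members left this order. Rpl38, known for selective translation of Hox transcripts, read 106 and 212 on E14 and 99.5 and 186 on P1, and its ratio went from -0.15 to 0.38, the largest difference (0.54) upward. Rpl22l1 followed with 0.51, then Rpl41 (0.42), Rps24 (0.39), Rpl17 (0.39) and Rps27l (0.35). Downward, Rpl29 differed most (-0.29), reading 921 and 2114 on E14 and 837 and 990 on P1, followed by Rps7 (-0.28) and Rps3 (-0.27). No member was at least 1.5-fold changed in opposite directions on the 2 arrays.

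Between the arrays, most ribosomal protein genes had lower normalised signal at P1 than in the sorted E14 cells, in both dyes. For this, channel values after loess were brought to a common distribution of mean intensity (Aquantile). The median log2 difference, P1 minus E14, over 56 members was -0.42 for wild type and -0.30 for knockout, against -0.06 in both over 12005 genes. It was below 0 in 49 members in the wild-type channels (58.7% of all genes), in 51 in the knockout channels (58.4%) and in 47 in both (49.9%). Under the 4 alternatives the medians stayed below 0 in both dyes, and the members' median minus that of all genes ran from -0.20 to -0.36. A low wild-type median was not particular to the members. Ribosome assembly genes had -0.40 for wild type and -0.12 for knockout, and mitochondrial ribosomal protein genes -0.37 and -0.14. Initiation factors had -0.17 and -0.18, elongation factors -0.06 and -0.0016, and a list of housekeeping genes 0.03 and 0.27. Stage, cell sorting and array cannot be told apart here, and the arrays carry different animals.

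Members of the large subunit led this difference. Rpl13a differed by -1.36 in the wild-type channels and -1.06 in the others, Rpl14 by -1.20 and -1.17 and Rpl22 by -1.14 and -1.08. These 3 were at least 2-fold lower at P1 in both dyes (3.96% of all genes; 4.81% for the wild-type and 6.30% for the knockout channels alone). None was 2-fold higher (6.66%, 6.17% and, in both, 4.72%). Rps24, whose splice forms vary between tissues, had -1.13 and -0.74, Rpl28 -0.86 and -0.78 and Rpl22l1 -0.97 and -0.46. In all, 7 of 56 were at least 1.5-fold lower in both dyes (10.6%), with 16 for wild type (13.5%) and 11 for knockout (15.2%) taken alone. None was at least 1.5-fold higher (12.3%, 12.1% and, in both, 9.10%). Rps15a (0.15 and 0.17), Rps3a1 (0.07 and 0.04) and Rpl5 (0.06 and 5.87e-05) were the 3 members above 0 in both. The share of members past 1.5-fold in both dyes (12.5%) was near that of all genes, and the share below 0 in both (83.9%) was larger.

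The lower side held for dim and bright members. Among those with a mean signal of 1000 or more, the wild-type median was -0.38 over 39 members against -0.09 over 679 other genes, and the knockout median -0.30 over 41 against -0.03 over 1474. Below 1000 it was -0.46 over 17 members against -0.06, and -0.30 over 15 against -0.06. Members with the pyrimidine start had medians of -0.47 and -0.45 over 11 genes, and those with a window but without it -0.28 and -0.26 over 33.

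**Figure D5:**
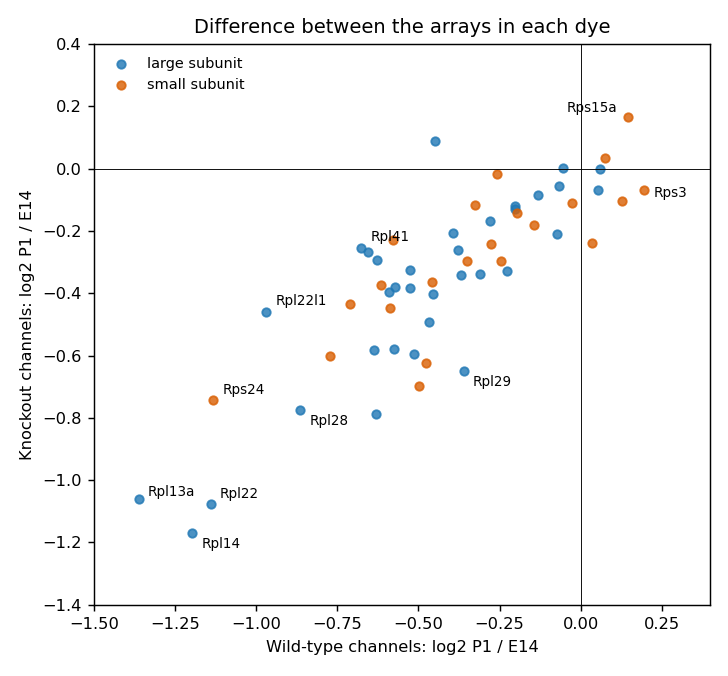
Log2 difference between the P1 and E14 arrays within the wild-type channels (x) and within the knockout channels (y) for the 56 ribosomal protein genes detectable on both arrays, coloured by subunit. Most points lie below 0 on both axes, with Rpl13a, Rpl14 and Rpl22 lowest and Rps15a highest.

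Other genes of the translation machinery were read from lists. Of 38 ribosome assembly genes, 35 were on the array, and 10 of 34 detectable on P1 were at least 1.5-fold higher in the knockout (2.84% of all genes) and 0 lower (4.12%), with 33 of 34 above 0 and a median of 0.43. Gnl3, a nucleolar GTPase, read 568 and 2022 with a ratio of 1.22, Nhp2, of the pseudouridine complex, 1.03, the export adaptor Nmd3 0.86 and the nucleolar chaperone Npm1 0.62. On E14 the same list had a median of 0.04 and 0 of 35 past 1.5-fold in either direction. Under median centring it had 0.64 there, with 22 of 35 at least 1.5-fold higher. Over all genes that setting gave 0.28 on E14, with 3149 of 12705 at least 1.5-fold higher. The difference between the arrays was not tested. The P1 median lay between 0.26 and 0.76 over the 10 alternatives, and 0.26 to 0.71 above all genes. The lung genes of the wild-type P1 channel stand beside this, and their part was not tested.

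Mitochondrial ribosomal protein genes, a separate ribosome, had a median of 0.05 on E14 and 0.22 on P1, with 3 of 76 at least 1.5-fold higher and 0 lower on P1 (2.84% and 4.12% of all genes). Under median centring the medians were 0.69 and 0.58, with 55 of 77 and 35 of 76 at least 1.5-fold higher. Over all genes that setting gave medians of 0.28 and 0.05, with 3149 of 12705 and 1295 of 12715 at least 1.5-fold higher. Initiation factors had medians of 0.01 and 0.02, with Eif3e (0.92), Eif4g1 (0.79) and Eif4b (0.64) at least 1.5-fold higher on P1, 3 of 27 (2.84% of all genes). Under median centring the medians were 0.71 and 0.45, with 18 and 7 of 27 at least 1.5-fold higher, beside the all-gene values just given. Of 8 detectable elongation factors only Eef1a1 passed 1.5-fold, at -0.98 on E14 and -0.96 on P1 (0.220% and 4.12% of all genes lower). It was read as a whole number in all 4 channels (28900 and 35952 on E14, 40590 and 36923 on P1). Among mTOR and MYC regulators, 1 of 14 passed, Myc on P1 (0.70, with 2.84% of all genes higher there), and none on E14. Under median centring 3 and 2 of the 8 elongation factors were at least 1.5-fold higher on E14 and P1. Of the 14 regulators 6 and 2 were, and of all genes 3149 of 12705 and 1295 of 12715.

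The list of housekeeping genes held both dim and bright genes. Their wild-type E14 signals ran from 69.1 (Cfl1) to 28390 (Ppia), so its medians do not measure the top of the range. The 25 on the array had medians of -0.08 on E14 and -0.12 on P1, close to those of the ribosomal protein genes. Under median centring they had 0.60 and 0.34, against 0.28 and 0.05 over all genes. Ppia, a prolyl isomerase, read 28390 and 33897 on E14, both whole numbers, with a ratio of -1.04, and 24940 and 31414 on P1, neither whole, with -0.47. Ftl1, a ferritin subunit, read 12846 and 18546 on E14 with -0.76 and was not read as a whole number.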

How the data were processed

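Each array was scanned at 635 nm for Cy5 and 532 nm for Cy3. The deposited scanner files hold spot intensities and local background intensities, not normalised, per the file headers. An amino allyl kit was used for amplification and dye coupling, per the labels' protocols. The authors' deposited table holds log2 ratios. These log2 values matched channel ratios recomputed here with the trimmed mean of the blanks taken off each channel and each array then centred at its median (correlation 1.00 on both arrays, column medians 7.21e-07 and -2.74e-05), so scale, centring and direction are known. The genome build and extraction software are not given in the sources used here.

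Intensities were corrected with normexp (offset 50) on spot signals alone, local background unused, and log2 ratios were normalised by loess within each array, control spots at weight 0, in limma 3.58.1 (R 4.3.3). Spots of a probe, then probes of a gene, were averaged, and genes detectable in both channels were used. The 4 quality-flagged probes of the E14 array were left out. Of 16631 platform symbols, 3947 were updated from older ones through RefSeq of GRCm38.p6. Rps3a1 entered by its platform symbol Rps3a, and Rpl34, Rpl39l and Rps4l by their updated symbols. The steps were also run on simulated arrays, in which no gene with a wild-type signal of 10000 or more was changed and no ceiling was set. That run says nothing about changes at brighter spots.

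Named genes were the members read as whole numbers, those undetectable in a channel, the 6 highest and 6 lowest ratios on each array, the 6 largest differences between arrays each way, paralogue pairs, stalk proteins, anaemia genes and the 6 largest stage differences each way. Members, lists and settings were chosen with earlier results of these data known. The number of arrays limits the precision. Alternatives were median centring, other background and offset settings, the authors' values, leaving out or down-weighting whole-number spots, down-weighting the members in loess, no detection filter, the brightest probe, and other scalings between arrays.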

Additional observations from a re-analysis of the deposited data

Results flagged for a closer look

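The local background columns, which the reported values do not use, held signal at the ribosomal protein spots above the level at blank spots. Its median over the 63 member probes on E14 was 1988 for wild type and 6759 for knockout, against 39.0 and 73.6 at blank spots. On the P1 array it was 1573 and 4805, against 41.2 and 74.2. It followed the spot signal, with Spearman coefficients over the 63 probes of 0.89 and 0.95 on E14 and 0.90 and 0.96 on P1. It exceeded 50 percent of the spot signal at 27 and 31 probes on E14 and at 33 and 39 on P1. At spots above 5000 it was a median of 37.2% of the signal for 38 member probes and 32.7% for 206 others in the wild-type E14 channel, and 46.8% for 37 and 31.2% for 256 in that of P1. Rps3 on E14 (109%) and Rpl15 on P1 (102%) had more local background than spot signal in the wild-type channel. The ratio of Rpl15 went from -0.11 to 5.95 on P1 when the local background was used in normexp, and that of Rps14 from -0.39 to 3.78 on E14.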

How the results depend on the processing

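No paired analysis was possible because each comparison is 1 array, and no replicate could be left out. The member median on the E14 array, -0.09 as reported, was 0.51 under median centring, 0.012 with the local background subtracted, -0.051 with it used in normexp, -0.057 with an offset of 0, -0.17 in the authors' deposited values, -0.11 with whole-number spots at weight 0 and -0.11 with the members at weight 0. On P1, -0.05 as reported, the same settings gave 0.35, 0.22, 0.12, -0.072, 0.089, -0.065 and -0.071, and it was -0.065 without whole-number spots and -0.033 with no detection filter. Members at least 1.5-fold higher on E14, 0 as reported, were 25 under median centring, 9 with the local background subtracted, 7 with it in normexp and 1 in the authors' values. On P1, 2 as reported, these were 14, 17, 13 and 7. Members at least 1.5-fold lower, 3 on each array, were 0 on both under median centring, 5 on both with the local background in normexp and 0 on P1 in the authors' values. Over all genes, 39 were at least 1.5-fold higher and 28 lower on E14, but 3149 and 5 under median centring and 684 and 155 in the authors' values. On P1, 361 and 524 became 1295 and 320, and 1510 and 1554. Median centring set the median of all gene spots, detectable or not, to 0. The genes used here, detectable in both channels, then had medians of 0.28 on E14 and 0.05 on P1. Under median centring 54 of 59 members were above 0 on E14, against 18 as reported. Of the 6 lowest there, Rplp1 (0.0088), Rps9 (0.17), Rpl32 (0.23), Rps3 (0.26) and Rpl26 (0.29) turned positive. Only Rpl41 (-0.58) of these stayed below 0. On P1, 52 of 56 were above 0 under it, against 24 as reported. With the local background subtracted or used in normexp, Rps3 (1.77 and 1.72) and Rps9 (0.75 and 0.67) turned positive on P1. The stage median was -0.37 for wild type and -0.065 for knockout with each channel scaled to its 75th percentile, -0.38 and -0.36 under quantile normalisation, -0.40 in the wild-type channels with the local background in normexp, and -0.36 and -0.28 without whole-number spots. The cause of these moves was not tested.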
